A study of Drosophila melanogaster with 4 samples.

Results

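The UDP-glycosyltransferase genes of the Drosophila melanogaster gut were examined in dwdr4 mutant and wild-type females. Members were taken by name, as genes whose FlyBase symbol starts with Ugt followed by a digit, which gave 35 of the 17807 genes counted. Of these, 32 had 10 or more raw counts in at least 2 of the 4 libraries and are described here. The mutant genotype was wh7, homozygous females carrying a mutant allele of dwdr4, the fly homolog of Wdr4, and the wild-type control (WT) was the yw strain. Both genotypes were 7 days old, and each had 2 libraries, each made from RNA of 20 to 30 dissected guts. The wh7 homozygotes came from mothers with 1 copy of the allele and mutant fathers that carried a dwdr4-gfp transgene, and whether the sequenced yw females shared their genetic background is not given in the sources used here. The allele and any other difference between the stocks cannot be told apart, and a gut mixes many cell types.

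UDP-glycosyltransferases are membrane enzymes of the endoplasmic reticulum that join a sugar from a UDP-sugar donor to small lipophilic molecules. In insects the sugar is mainly glucose, and the product is more soluble and easier to excrete. They act beside cytochrome P450 enzymes, which oxidize foreign compounds, and glutathione transferases, which conjugate them with glutathione. The gut, the Malpighian tubules and the fat body are the main detoxification tissues of the fly, and some members are also known from the olfactory organs. The first number in a symbol such as Ugt37D1 is the family of the enzyme, and the letter after it is the subfamily.

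Library totals lay between 93603837 and 101610356 counts, and levels are given as CPM, the standard scaling of counts to the library total, here after TMM normalization. The mutated gene, listed as wuho, had 2 and 3 counts in the wh7 libraries, against 1489 and 1256 in the WT libraries. The genotypes were compared with edgeR's quasi-likelihood test across 10795 genes, with p-values adjusted by Benjamini-Hochberg over all of them. With 2 libraries against 2, the lowest two-sided p of an exact permutation test is 0.33 for any gene. The p-values below therefore borrow the spread from other genes, as edgeR does. The enterocyte markers summed to 50694.9 and 45911.8 CPM in wh7 and 32069 and 39931.9 CPM in WT, with both wh7 libraries above both WT libraries in 3 of the 6 genes and below them in 2. Of that sum, Amy-p alone had 28900 and 24800 CPM in wh7 and 10500 and 17500 CPM in WT. The trypsin genes alphaTry and betaTry lay below WT, and Myo31DF overlapped between the genotypes. Of the 10 Malpighian tubule markers, all were detected, 3 lay above and 2 below WT without overlap, and the list summed to 404.4 and 381 CPM in wh7 and 487.6 and 385.3 CPM in WT. Urate oxidase (Uro), a defining tubule enzyme, had 35.3 and 45.9 CPM in wh7 and 108 and 17.6 CPM in WT. The tubule markers that differed most went opposite ways, Oatp58Db with a log2 fold change of 2.65 and Oatp58Da with -1.61. The 11 fat body genes summed to 5457.3 and 5408.8 CPM in wh7, against 8422 and 13786.1 CPM in WT, and 8 of them lay below WT without overlap. All 5 enteroendocrine genes lay below WT, summing to 134.9 and 139.2 CPM in wh7 and 291 and 279.8 CPM in WT, and all 3 copper cell genes lay above it, at 391.5 and 406.5 CPM in wh7 and 332 and 223.3 CPM in WT. Over all genes tested, 23.8% lay above and 22.9% below WT without overlap, so the tubule counts were near that share. The 2 progenitor genes analysed, klu and Sox21a, and the 3 visceral muscle genes overlapped between the genotypes. The progenitor markers esg and Dl were not found among the gene symbols used here and were not analysed. Of the 3 hindgut and trachea genes, 2 lay below WT. Ovary genes were near 0, at 0.504 CPM or less in sum for the 4 analysed, and none of these marker lists had a gene at 0 in every library. Fewer cells of a type and less RNA per cell cannot be told apart in such samples, and the part of these markers in the results below was not tested.

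Together the 32 genes had 1554.7 and 1780.0 CPM in wh7 guts, against 1226.7 and 1075.0 CPM in WT guts. The means were 1667.4 ± 159.3 CPM in wh7 and 1150.8 ± 107.3 CPM in WT (SD, n = 2 each), a ratio of 1.45. Both mutant libraries thus carried more UDP-glycosyltransferase RNA than either control library. A pair of genes, Ugt37D1 and Ugt302C1, held 38.7% and 41.0% of this sum in wh7, against 38.2% and 19.6% in WT. Without them the sums were 952.9 and 1050.4 CPM in wh7 and 758.3 and 864.5 CPM in WT, again with no overlap. No p is given for a sum over genes chosen as a family.

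**Figure D1:**
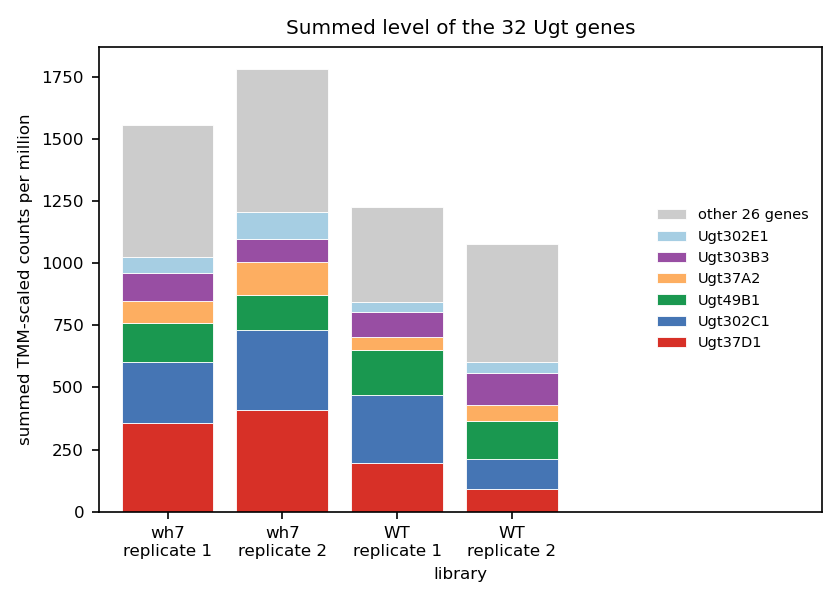
Summed level of the 32 Ugt genes in each library in TMM-scaled CPM, as stacked bars with the 6 most abundant genes in wh7 in color and the other 26 in gray. Both wh7 bars, at 1554.7 and 1780.0, are taller than the WT bars, at 1226.7 and 1075.0, and the Ugt37D1 segment differs most.

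Levels of different genes were compared per kilobase of the longest annotated transcript. On this scale Ugt37D1 (mean 196 CPM per kilobase) and Ugt302C1 (141) came first in wh7, followed by Ugt49B1 (84.9), Ugt37A2 (64.7) and Ugt303B3 (57.4). In WT the order was Ugt302C1 (97.9), Ugt49B1 (95.8), Ugt37D1 (73.8), Ugt303B3 (64.2) and Ugt35A1 (37.2). The libraries of Ugt302C1, Ugt49B1 and Ugt37D1 overlapped with each other in WT, where Ugt302C1 alone had 273 and 117 CPM. Ugt303B3, at 55.5 and 72.9 CPM per kilobase in WT, also overlapped with Ugt302C1 and Ugt37D1. In wh7 the first 3 genes did not overlap, while Ugt37A2 and Ugt303B3 did. Above 10 CPM per kilobase there were 16 genes in wh7 and 15 in WT, and below 1 there were 5 in wh7 and 7 in WT. At the low end, Ugt36F1 had 8 and 10 raw counts in wh7 and 14 and 11 in WT, and Ugt35E2 had 0 and 11 in wh7 and 11 and 14 in WT. Both only just met the count minimum. Below it were Ugt37C1, with 7 and 0 counts in wh7 and 0 and 8 in WT, and Ugt35D1 and Ugt49B2, with no counts in any library.

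**Figure D2:**
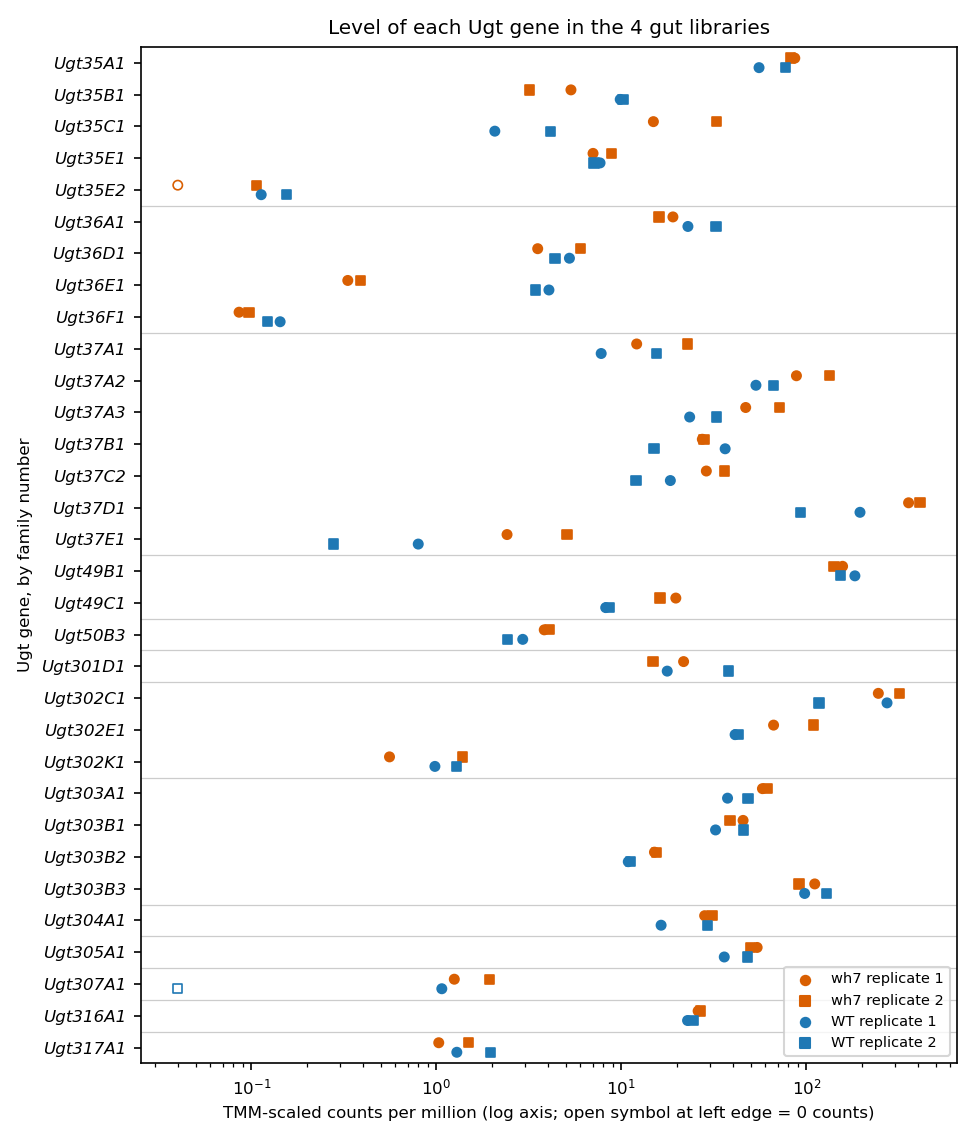
TMM-scaled CPM (log axis) of each of the 32 Ugt genes, grouped by family number, in the wh7 (orange) and WT (blue) libraries, with circles for replicate 1, squares for replicate 2 and open symbols at the left edge for 0 counts. The wh7 symbols of Ugt36E1 lie near 0.3 to 0.4, against 3.43 and 4.06 in WT, while those of Ugt35C1, Ugt37E1 and Ugt37D1 lie to the right of WT.

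All 32 genes passed the count filter of the test. At an adjusted p under 0.05, 1 of them was called, Ugt36E1, which was lower in wh7, and 0 were called higher. Of all genes tested, 0.482% were called. At an unadjusted p under 0.05 there were 9 higher and 3 lower members, 28.1% and 9.38% of the 32, where 7.23% and 7.32% of all genes were higher and lower. Both wh7 libraries lay above both WT libraries in 15 members (46.9%, against 23.8% of all genes) and below them in 5 (15.6%, against 22.9%). The genotypes overlapped in the other 12. The mean was higher in wh7 for 21 members and lower for 11, and the median log2 fold change was 0.33, against -0.02 over all genes tested. Without WT replicate 1 that median was 0.14. DESeq2's Wald test called 8 members higher and 2 lower on the same counts. Over all 10795 genes tested it called 425 higher and 434 lower, 7.96% for both directions together.

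**Figure D3:**
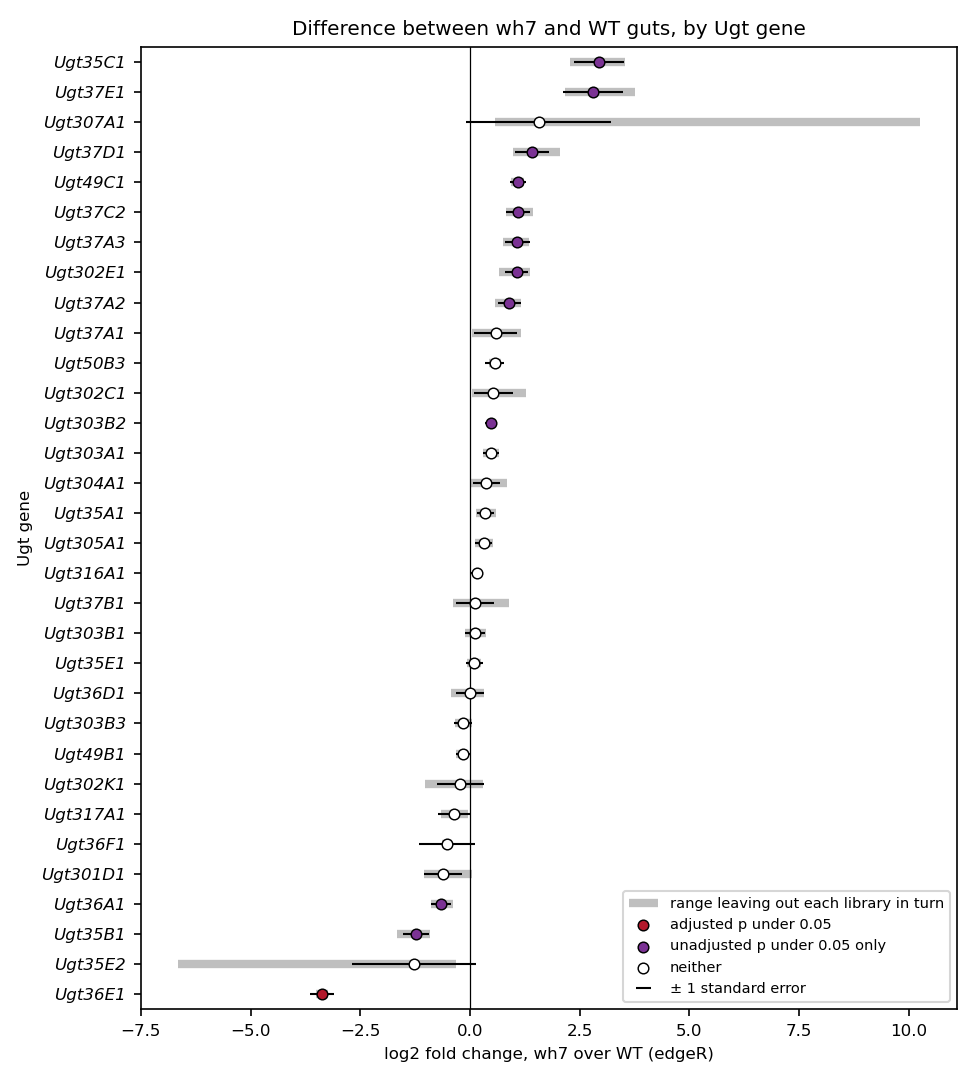
Log2 fold change of wh7 over WT for the 32 Ugt genes from edgeR, with 1 SE (black lines) and the range when each library is left out in turn (gray bars); red marks an adjusted p under 0.05 and purple an unadjusted p under 0.05 only. Ugt36E1, at -3.37, is the single red point, and 9 of the purple points lie to the right of 0.

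The Ugt36 family held the called gene. Ugt36E1 (FBgn0027070, chromosome arm 2L), an enzyme known to modulate the response of olfactory neurons to odorants, had 31 and 40 raw counts in wh7, against 397 and 309 in WT. Its level fell to 0.36 ± 0.04 CPM in wh7, against 3.74 ± 0.45 CPM in WT (SD, n = 2 each), 10.3-fold lower. The log2 fold change was -3.37 (standard error, SE, 0.28, edgeR adjusted p = 0.0441). Leaving out any one library gave values between -3.50 and -3.24. With all libraries, the alternatives gave adjusted p between 3.28e-15 (DESeq2's Wald test) and 0.148 (edgeR with the replicate number as a block). The call was lost with that block, where 0 genes were called in all, and also without the count filter (edgeR adjusted p = 0.0532). An exon of Ugt36E1 overlaps CG17597 on the opposite strand, and whether the counting used the strand is not given in the sources used here. CG17597 itself had 296 and 265 CPM in wh7 and 264 and 272 CPM in WT, a log2 fold change of 0.07.

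The other 3 members of the Ugt36 family did not pass the test. Ugt36D1, which lies next to Ugt36E1 on 2L, had 3.53 and 6.03 CPM in wh7 and 5.24 and 4.37 CPM in WT, so that its genotypes overlapped (log2 fold change -0.01, SE 0.32). Ugt36F1 sits on the other side of Ugt36D1 and was barely detected in either genotype. Ugt36A1, also known as Dorothy (Dot), whose regulatory sequence is used as a marker of blood cells and pericardial cells, had 19.0 and 16.0 CPM in wh7, against 22.9 and 32.5 CPM in WT. Its log2 fold change was -0.66 (SE 0.23, edgeR adjusted p = 0.323). Leaving out WT replicate 2 gave -0.39. The family as a whole was thus at 23.0 and 22.6 CPM in wh7 and 32.3 and 40.4 CPM in WT, with all 4 means lower in wh7.

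The Ugt37 family had 7 members described, and the mean of each was higher in wh7. They summed to 562.7 and 707.1 CPM in wh7, against 335.4 and 234.8 CPM in WT. The median log2 fold change was 1.08, and 5 of the 7 had no overlap between the genotypes. By edgeR's test 0 had an adjusted p under 0.05 and 5 had an unadjusted p under 0.05, and DESeq2's Wald test called those 5. Over all genes tested, 23.8% lay above WT without overlap, 7.23% were higher at an unadjusted p under 0.05 and 7.96% were called by DESeq2 in either direction. Ugt37D1 (FBgn0040260, 2L) had 357 and 411 CPM in wh7 and 195 and 93.1 CPM in WT. The WT libraries differed 2.09-fold from each other, and both lay well below the wh7 libraries. Its log2 fold change was 1.41 (SE 0.39, edgeR adjusted p = 0.232). Leaving out WT replicate 1 gave 2.04 and leaving out WT replicate 2 gave 0.97. With all libraries, the alternatives gave adjusted p between 0.00893 (DESeq2's Wald test) and 0.359 (edgeR with the replicate number as a block).

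Ugt37D1 stands in a row of 3 family members on 2L, with Ugt37E1 and Ugt37C2 before it and no other coding gene between them. Ugt37E1 (FBgn0040261) had 225 and 524 raw counts in wh7, against 78 and 25 in WT. It was 6.95-fold higher on average, a log2 fold change of 2.80 (SE 0.68, edgeR adjusted p = 0.193). Leaving out WT replicate 1 gave 3.75, and leaving out wh7 replicate 2 gave 2.16. Ugt37C2 (FBgn0040262) had 28.8 and 36.0 CPM in wh7 and 18.4 and 12.0 CPM in WT, a log2 fold change of 1.09 (SE 0.27, edgeR adjusted p = 0.197). All 3 neighbors were therefore higher in both wh7 libraries. CG17928, the coding gene beside Ugt37C2, had 27.9 and 35.1 CPM in wh7 and 39.0 and 18.2 CPM in WT, and its genotypes overlapped.

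In a second set of neighbors, Ugt37A2 and Ugt37A3 on 3R, both wh7 libraries also lay above both WT libraries. Ugt37A2 (FBgn0038082) had 88.4 and 133 CPM in wh7, against 53.4 and 66.2 CPM in WT. Ugt37A3 (FBgn0038083) had 47.0 and 71.7 CPM in wh7, against 23.4 and 32.7 CPM in WT. Their log2 fold changes were 0.89 and 1.08 (SEs 0.26 and 0.29, edgeR adjusted p = 0.247 and 0.225). The other members of the family overlapped between the genotypes. Ugt37A1 had 12.1 and 22.7 CPM in wh7 and 7.78 and 15.5 CPM in WT. Ugt37B1 had 27.4 and 28.0 CPM in wh7 but 36.45 and 15.04 CPM in WT, and its log2 fold change of 0.11 turned to -0.40 on leaving out WT replicate 2, against 0.88 on leaving out WT replicate 1.

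The Ugt35 family had members on both sides of WT. Ugt35C1 (FBgn0040256, 3R), formerly Ugt86Dd, in which natural variation is known to alter resistance of flies to nicotine, had 1392 and 3381 raw counts in wh7, against 202 and 374 in WT. At 14.9 and 32.8 CPM in wh7 and 2.07 and 4.15 CPM in WT, each wh7 library was above both WT libraries, and the average was 7.69-fold higher. The log2 fold change of 2.94 had the highest value of the 32 genes (SE 0.57, edgeR adjusted p = 0.135). It became 3.52 without WT replicate 2 and 2.27 without wh7 replicate 2. With all libraries, the alternatives gave adjusted p between 1.59e-06 (DESeq2's Wald test) and 0.164 (edgeR without the count filter). The coding genes on either side of Ugt35C1, SdhCL and mAcon2, had no more than 3 counts in any library.

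Ugt35B1 (FBgn0026314, 3R), known from the antenna, had 5.34 and 3.19 CPM in wh7 and 9.86 and 10.2 CPM in WT. The log2 fold change was -1.23 (SE 0.30, edgeR adjusted p = 0.191), which ranged from -1.66 without wh7 replicate 1 to -0.91 without wh7 replicate 2. Its neighbor Ugt35A1 had 86.6 and 81.9 CPM in wh7 and 55.5 and 77.1 CPM in WT, a log2 fold change of 0.35 (SE 0.20). Ugt35E1 overlapped between the genotypes, at 7.03 and 8.86 CPM in wh7 and 7.67 and 7.12 CPM in WT. Ugt35E2, between Ugt35E1 and Ugt35B1, had too few counts to show a difference.

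In the Ugt302 family, Ugt302E1 (FBgn0040257, 3R) had 66.5 and 109 CPM in wh7, against 41.2 and 42.8 CPM in WT. The log2 fold change was 1.06 (SE 0.27, edgeR adjusted p = 0.209), and it was 0.67 without wh7 replicate 2. Ugt302C1, directly beside it and with the highest mean per kilobase in WT, had 245 and 319 CPM in wh7 and 273 and 117 CPM in WT. Its genotypes overlapped, and the log2 fold change of 0.53 ranged from 0.04 (WT replicate 2 left out) to 1.27 (WT replicate 1 left out). Ugt302K1 was low throughout, at 0.558 and 1.39 CPM in wh7 and 0.982 and 1.29 CPM in WT.

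The Ugt49 family differed within a pair of neighbors on 2R. Ugt49C1 (FBgn0034605) had 19.7 and 16.2 CPM in wh7, against 8.23 and 8.65 CPM in WT. The log2 fold change was 1.09 (SE 0.18), and the adjusted p of 0.107 from edgeR's test was the lowest of the members that were higher in wh7. With all libraries, the alternatives gave adjusted p up to 0.279 (edgeR with the replicate number as a block), with the lowest, 0.000241, from DESeq2's Wald test. The log2 fold change stayed between 0.93 and 1.23 when each library was left out. Ugt49B1, one of the most abundant members, had 157 and 141 CPM in wh7 and 183 and 153 CPM in WT, and its genotypes overlapped (log2 fold change -0.17, SE 0.16). ASPP, the coding gene on the other side of Ugt49C1, had 13.9 and 17.0 CPM in wh7 and 31.5 and 34.1 CPM in WT, a log2 fold change of -1.08.

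Differences in the Ugt303 family were small and did not pass the test. Ugt303B2 (FBgn0039087, 3R) had 15.1 and 15.5 CPM in wh7 and 10.9 and 11.2 CPM in WT, a log2 fold change of 0.47 (SE 0.14, unadjusted p = 0.0274, edgeR adjusted p = 0.268). Its replicates were close to each other in both genotypes. The adjacent Ugt303B1 and Ugt303B3 overlapped between the genotypes, with log2 fold changes of 0.11 and -0.16. Ugt303A1 had 57.9 and 61.6 CPM in wh7, against 37.5 and 48.4 CPM in WT (log2 fold change 0.47, SE 0.18, edgeR adjusted p = 0.352).

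The remaining families had 1 member each. Ugt50B3, of a family that most insects carry as a single gene, had 3.83 and 4.08 CPM in wh7 and 2.93 and 2.43 CPM in WT, a log2 fold change of 0.56 (SE 0.21). Ugt305A1 had 54.2 and 50.1 CPM in wh7 and 36.0 and 48.0 CPM in WT, and Ugt316A1 had 26.01 and 26.72 CPM in wh7 and 22.8 and 24.4 CPM in WT. Neither had an unadjusted p under 0.05. Ugt304A1, at 28.2 and 30.9 CPM in wh7 and 16.4 and 29.3 CPM in WT, had a log2 fold change of 0.37 that became 0.85 without WT replicate 2 (adjusted p = 0.0415) and 0.01 without WT replicate 1. The alternatives gave it adjusted p between 0.0415 and 1. Ugt301D1 had 21.7 and 14.8 CPM in wh7 and 17.7 and 38.0 CPM in WT, and Ugt317A1 had 1.03 and 1.49 CPM in wh7 and 1.29 and 1.96 CPM in WT. Ugt307A1 had 117 and 199 raw counts in wh7 and 105 and 0 in WT, and the log2 fold change of 1.56 (SE 1.65) became 0.56 without WT replicate 2. Without WT replicate 1 its only WT value was 0. With all libraries the edgeR adjusted p was 0.737. An exon of Ugt307A1 overlaps Pvf2 on the opposite strand.

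By position, the 35 genes lie on 2L (11), 2R (5), 3L (2) and 3R (17), and 22 of them have another Ugt gene as their next coding gene, in 7 groups. In 3 of these groups all members had means on the same side of WT. Whether that is more groups than unrelated genes would give was not tested. The Ugt37C2, Ugt37E1 and Ugt37D1 group and the Ugt37A2 and Ugt37A3 group had higher means in wh7, and the Ugt36F1, Ugt36D1 and Ugt36E1 group had lower means, though Ugt36D1 by only 0.01. Ugt36F1 had 14 counts or fewer in every library. In the other 4 groups the directions were mixed. The largest of them, on 3R, ran from Ugt35E1 through Ugt35E2, Ugt35B1, Ugt35A1 and Ugt304A1 to Ugt303A1, with 4 higher and 2 lower means. Neighboring members can be similar in sequence, and reads of similar copies could have been split between them in the counting.

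**Figure D4:**
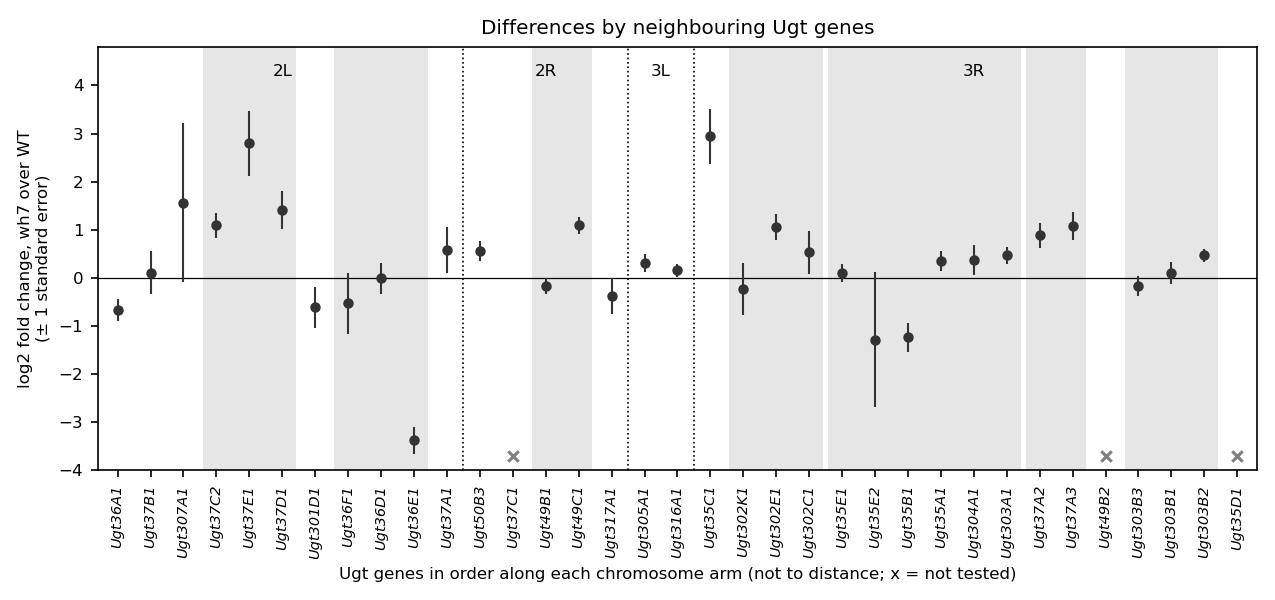
Log2 fold change of wh7 over WT with 1 SE for the Ugt genes in their order along each chromosome arm (2L, 2R, 3L, 3R; not to distance), with gray bands for genes that are next to each other and crosses for the 3 genes not tested. The Ugt37C2, Ugt37E1 and Ugt37D1 band on 2L lies above 0 at 1.09, 2.80 and 1.41, and Ugt36E1 lies at -3.37.

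The replicates set the precision of these values. Of the 26 members with at least 1 CPM in every library, the WT libraries differed by more than 2-fold in 5 and the wh7 libraries in 1. At a limit of 1.5-fold the WT libraries differed in 9 and the wh7 libraries in 7. On leaving out any one library, 25 of the 32 members kept the sign of the log2 fold change. The other 7, Ugt301D1, Ugt302K1, Ugt303B1, Ugt303B3, Ugt35E1, Ugt36D1 and Ugt37B1, all overlapped between the genotypes. The exons of 5 members overlap another gene, each on the opposite strand.

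The donor sugar of these enzymes is made in a short pathway. Of 7 genes for the supply of UDP-sugars, edgeR's test and DESeq2's Wald test called 0 at an adjusted p under 0.05, and 1 higher and 2 lower genes had an unadjusted p under 0.05, where 7.23% and 7.32% of all genes were higher and lower. UGP, which encodes the pyrophosphorylase that makes UDP-glucose, had 54.6 and 55.7 CPM in wh7, against 77.4 and 110 CPM in WT (log2 fold change -0.77, SE 0.21, edgeR adjusted p = 0.232). Galt, the uridylyltransferase of galactose use, had a log2 fold change of -0.53, and Efr, another gene of this list, had one of 0.51. The sgl gene, whose dehydrogenase turns UDP-glucose into UDP-glucuronate, overlapped between the genotypes, at 120 and 106 CPM in wh7 and 79.2 and 142 CPM in WT.

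Of 7 regulators of detoxification genes, edgeR's test called 0 at an adjusted p under 0.05, 1 lower gene had an unadjusted p under 0.05, and DESeq2's Wald test called that gene. Of all genes, 7.32% were lower at an unadjusted p under 0.05 and 7.96% were called by DESeq2. It was ss (spineless), the fly homolog of the aryl hydrocarbon receptor, with 0 raw counts in both wh7 libraries and 142 and 196 in WT. With a floor of 3 counts per library, ss was lower in wh7 by at least 59.1-fold (edgeR adjusted p = 0.0679). Its partner tgo had 23.8 and 23.1 CPM in wh7 and 18.3 and 23.8 CPM in WT. The gene for the oxidative stress regulator Cnc, the fly Nrf2, had 585 and 590 CPM in wh7 and 530 and 545 CPM in WT, a log2 fold change of 0.13. Keap1, its inhibitor, and maf-S, its partner, had log2 fold changes of 0.33 and 0.39, and the xenobiotic receptor gene Hr96 had one of 0.12. For Hnf4, a regulator of metabolism, it was -0.01. None of these 6 had an unadjusted p under 0.05.

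Of the 6 ABC transporter genes for export of conjugates and other compounds, 0 were called by edgeR's or DESeq2's test, and 2 were higher at an unadjusted p under 0.05, as were 7.23% of all genes. MRP had 648 and 831 CPM in wh7, against 537 and 380 CPM in WT, and Mdr50 had 419 and 369 CPM in wh7, against 286 and 173 CPM in WT. Their log2 fold changes were 0.69 and 0.78, with edgeR adjusted p of 0.327 and 0.332. Mdr49, Mdr65, Mrp4 and Mrp5 overlapped between the genotypes.

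The other families of detoxification enzymes were set beside the Ugt genes without a test of the difference. At an unadjusted p under 0.05, 28.1% of the 32 Ugt genes, 36.4% of the 77 cytochrome P450 genes tested and 44.1% of the 34 glutathione transferase genes tested were higher in wh7. The share lower was 9.38%, 5.19% and 5.88% in the same order. Over all genes tested, 7.23% were higher and 7.32% lower at that threshold. The median log2 fold changes were 0.33 for the Ugt genes, 0.49 for the P450 genes and 0.65 for the glutathione transferases, against -0.02 over all genes tested. At an adjusted p under 0.05, 3 glutathione transferase genes were higher, GstD9, GstD2 and GstE5, with log2 fold changes of 4.12, 3.57 and 3.34, and so were 4 P450 genes, Cyp6a20, Cyp4p1, Cyp28a5 and Cyp4d1, with log2 fold changes of 2.60, 2.46, 2.28 and 2.19. Of all 10795 genes tested, 27 were called higher at an adjusted p under 0.05. The summed P450 level was 10090.8 and 10194.2 CPM in wh7 and 4938.3 and 4797 CPM in WT.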

How the data were processed

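RNA-seq of female guts was analyzed in 2 wh7 and 2 WT libraries. The authors trimmed reads with Trimmomatic 0.36, aligned them with HISAT2 and quantified them with StringTie 2.1.4. The genome build, annotation and strand setting are not given in the sources used here. The deposited counts are whole numbers per gene, one column per library, not normalized. A deposited table of the authors' own fold changes, p-values and normalized counts was not used.

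Counts were analyzed with R 4.3.3, edgeR 4.0.16 and DESeq2 1.42.0. Genes kept by filterByExpr (10795 of 17807) were given TMM factors (wh7 0.986 and 1.013, WT 1.039 and 0.963). A quasi-likelihood test (edgeR) without covariates compared the genotypes, with Benjamini-Hochberg adjustment. The SE was taken as the size of the fold change (log2) over the root of the F statistic. Of the gene IDs, 17710 matched a FlyBase symbol and 97 did not. Chromosome arms, gene order, overlaps and transcript lengths came from the BDGP6.54 annotation, and no coordinates are given. The alternatives were DESeq2, its size factors, no count filter, the replicate number as a block and leaving out each library. The last leaves a group with a single library, so only its fold changes are given. The members and lists were chosen with earlier results of these data known. Every Ugt gene by the symbol rule is named. Other genes are members of the lists, coding neighbors of members or, for CG17928, ASPP, SdhCL and mAcon2, neighbors chosen after their values were seen. The scripts were also tested on simulated data and recovered the simulated fold changes, but a limit set on the share of large changes called was not met and was dropped.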

Additional observations from a re-analysis of the deposited data

How the results depend on the processing

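DESeq2's Wald test called 859 of all genes, against 52 with edgeR's test, and 8 Ugt genes higher and 2 lower, against 0 and 1. With no filter on low counts 30 genes were called in all and 0 Ugt genes, Ugt36E1 being at an adjusted p of 0.0532. DESeq2's size factors in edgeR changed no call of a Ugt gene. Replicate numbers do not show a pairing here: the deviations of libraries with the same number correlated at -0.26 across genes. With the replicate number as a block, 0 genes were called, and Ugt36E1 had an adjusted p of 0.148. With the pairing crossed, an alternative added after seeing the data, the block gave 99 calls, 1 higher Ugt gene and 1 lower. Leaving out each library gave 0 to 921 calls over all genes, 0 to 3 higher and 0 to 1 lower Ugt genes, and a median of 0.14 to 0.40 over the Ugt genes, the lowest without WT replicate 1. The cause was not tested. The log2 fold changes that changed sign ranged from -1.06 to 0.04 for Ugt301D1, from -1.02 to 0.29 for Ugt302K1, from -0.12 to 0.37 for Ugt303B1, from -0.34 to 0.04 for Ugt303B3, from -0.07 to 0.26 for Ugt35E1, from -0.44 to 0.32 for Ugt36D1 and from -0.40 to 0.88 for Ugt37B1. In Ugt303B1 the value was -0.02 without wh7 replicate 1, and in Ugt36D1 it was 0.13 without WT replicate 1. Depth limits Ugt35E2 and Ugt36F1, with 14 counts or fewer in every library.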
